A study of Mus musculus with 8 samples.

Results

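Imprinted genes and the transcripts of the Gnas locus were followed in common myeloid progenitors (CMPs) of young and old mice. CMPs are bone marrow progenitors that give rise to granulocytes, monocytes, megakaryocytes and erythroid cells. They were sorted from untreated wildtype C57BL/6J mice, and their total RNA was labelled with Cy3 and hybridized to 1-colour Agilent mouse arrays, 1 array per sample. The comparison is of 4 young arrays (replicates 3 to 6) with 4 old arrays (replicates 2 to 5). The sample labels give the ages as 2 to 3 and 22 to 24 months, whereas the design text of the series gives 3 to 4 and 22 to 26 months. The CMP gate was a surface phenotype (Lin-, cKit+, Sca-1-, CD34+, FcγRlow), so that each array reads a mixed progenitor population. The members were 41 names. They comprise imprinted genes, their close neighbours and a pair of long intergenic noncoding RNA (lincRNA) regions on opposite strands of 1 interval of chromosome 2 beside Gnas. Of these names, 40 were on the array under the name used here and 1, Rian, was not matched. They were read by 88 probes of 55681 probes on the array, and by 40 of 34797 gene names. The lincRNA regions were included because their signal differed between the ages on these same arrays. Their differences between the ages are therefore given as a description without a test. The other members were chosen by name.

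In genomic imprinting, 1 parental copy of a gene is silenced and the other is expressed, usually according to DNA methylation set in the germline. Imprinted genes lie in clusters in which a noncoding RNA is often transcribed across or beside coding genes. At the Gnas cluster, several promoters share downstream exons: the main product of Gnas is the stimulatory G protein alpha subunit, which couples receptors to cyclic AMP synthesis, and Nespas is a noncoding antisense transcript. Imprinted genes such as H19, Igf2 and Dlk1 are known for roles in growth and in stem cells. An array cannot tell the parental copies apart.

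The probes that carry the chromosome 2 difference are shown first, because a lincRNA region on this array is only the sequence of its probes. All coordinates are those of the mouse build mm9 as given in the scanner files. The interval was chr2:174088550-174109425, 20876 bases, with 10 probes on the forward strand and 6 on the reverse strand. On the reverse strand, 4 neighbouring probes lie within 262 bases, between positions 174098013 and 174098274. Each probe sequence is written 5′ to 3′ as the array design gives it, in the direction of the transcript it reads.
A_30_P01032495 (reverse, chr2:174098013-174098072): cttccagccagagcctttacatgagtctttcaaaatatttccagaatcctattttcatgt
A_30_P01021197 (reverse, chr2:174098091-174098150): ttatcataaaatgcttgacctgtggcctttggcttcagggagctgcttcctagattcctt
A_30_P01030153 (reverse, chr2:174098155-174098214): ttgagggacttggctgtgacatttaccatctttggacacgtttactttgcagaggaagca
A_30_P01030755 (reverse, chr2:174098215-174098274): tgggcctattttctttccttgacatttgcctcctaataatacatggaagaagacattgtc

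On the forward strand, 1 probe differed in the same direction. It lay 9680 bases beyond the 4 reverse-strand probes and 200 bases beyond the probe of Nespas. Capitals mark a closing run of 8 A.
A_30_P01018189 (forward, chr2:174107955-174108014): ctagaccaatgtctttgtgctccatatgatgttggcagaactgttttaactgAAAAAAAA

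The values below are log2 signals relative to the 75th percentile of the same array, so that 0 is the signal at that percentile. They compare arrays for 1 probe and not 1 probe with another. A probe was counted as detected on an array when the scanner software marked it as well above background, and it was tested when detected on at least 4 of the 8 arrays. The fit was run with limma over all 33476 tested probes, and a call needed at least a 1.5-fold difference with a Benjamini-Hochberg adjusted p under 0.05 over all of them.

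The forward probe A_30_P01018189 gave a signal well above background in young CMPs and none in old CMPs that the software marked as such. It read -2.78, -3.96, -3.14 and -2.81 on young arrays 3 to 6 and -6.31, -6.88, -6.92 and -6.54 on old arrays 2 to 5. All 4 young and 0 old arrays were well above background, and the ages were far apart. The mean was -3.17 ± 0.55 (SD, n = 4) over the young arrays. Over the old arrays it was -6.66 ± 0.29 (SD, n = 4). Because no old array measured it, the fold change has only a bound. The signal was at least 3.45-fold lower in old CMPs, a bound in which any old array below the detection floor (the dimmest probe that the software marked well above background there) was raised to it. With normexp background correction, whose offset of 50 draws low signals together, the bound was 1.39-fold. The log2 difference between the measured means was -3.49, and it was -3.74 on the first slide and -3.25 on the second.

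The 4 neighbouring reverse-strand probes were also lower in old CMPs, but their young arrays fell into a high and a low pair. Probe A_30_P01032495 read -1.43, -3.99, -1.59 and -3.71 on young arrays 3 to 6 and -6.16, -6.65, -4.59 and -5.22 on old arrays 2 to 5. It was detected on all 4 young arrays and on no old array, and was at least 4.74-fold lower in old CMPs (1.72-fold with normexp). Probe A_30_P01021197 read -1.50, -3.66, -1.67 and -2.98 on the young arrays and -4.30, -4.22, -4.23 and -5.27 on the old arrays. It was detected on 4 young and 3 old arrays, and its log2 difference was -2.05, a 4.15-fold lower signal in old CMPs (log2 difference -0.72 with normexp). In both probes each young array was above each old array.

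Probe A_30_P01030153 read -1.53, -4.51, -1.50 and -3.85 on young arrays 3 to 6 and -6.51, -6.83, -4.47 and -6.48 on old arrays 2 to 5. Here the ages overlapped, since old array 4 lay just above young array 4, while the log2 difference of the measured values was -3.22 (-0.86 with normexp). It was detected on 4 young arrays and on 1 old array, so that most old values lay near background. Probe A_30_P01030755 read -2.17, -4.75, -2.58 and -5.06 on the young arrays and -7.26, -6.62, -6.56 and -6.15 on the old arrays. It was detected on 3 young arrays and on no old array, too few arrays to be tested, and was at least 2.49-fold lower in old CMPs (1.24-fold with normexp). This bound rested on young arrays 3 and 5. The readings on young arrays 4 and 6 lay within the range of the old detection floors, -5.23 to -4.69.

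Young arrays 3 and 5 gave the brightest signals of this stretch at each of the 4 probes, and young arrays 4 and 6 lay between them and most old arrays. The mean over the 4 probes was -1.66, -4.23, -1.84 and -3.90 on young arrays 3 to 6 and -6.06, -6.08, -4.96 and -5.78 on old arrays 2 to 5. Each of the 2 slides held 1 of the bright young arrays. Across the 8 arrays the 4 probes had pairwise Pearson correlations of 0.89 to 0.98, a description of probes that read the same labelled RNA from adjacent sequence. Over the 4 young arrays alone the correlations were 0.93 to 0.99. Without young arrays 3 and 5, a comparison added after the values had been seen, the log2 differences of the measured values were -1.80 for A_30_P01032495, -1.19 for A_30_P01021197, -1.89 for A_30_P01030153 and -1.74 for A_30_P01030755. These are not bounds, and A_30_P01021197 was the only one of the 4 detected on more than 1 old array. The bounds given above included young arrays 3 and 5. Young arrays 4 and 6 lay above all old detection floors at A_30_P01032495, but not at A_30_P01030755. The forward probe did not share this split of the young arrays: young array 6 was among its brightest and young array 4 its dimmest.

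**Figure D1:**
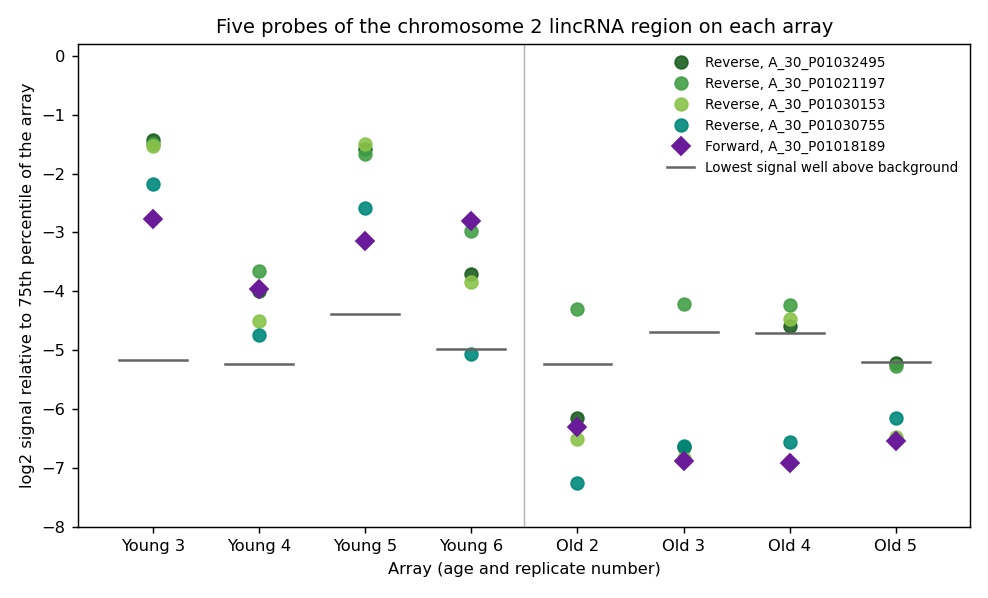
Log2 signal relative to the 75th percentile (vertical axis) on each of the 8 arrays (horizontal axis) for the 4 neighbouring reverse-strand probes (circles) and the forward probe A_30_P01018189 (diamonds), with a grey bar at the detection floor of the array. Young arrays 3 and 5 stand highest at the reverse-strand probes, whereas the forward probe lies between -3.96 and -2.78 on all 4 young arrays and under the grey bar on all 4 old arrays.

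The other probes of the interval did not show a difference of this size. Probe A_30_P01032628, on the reverse strand at chr2:174092832-174092891, was detected on all 8 arrays. It read -0.42, -0.71, -2.01 and -1.93 on young arrays 3 to 6 and -3.08, -1.94, -0.26 and -1.18 on old arrays 2 to 5. The ages overlapped widely, and the log2 difference of -0.35 was 0.41 on the first slide and -1.10 on the second. On the forward strand, 6 of the other 7 tested probes had log2 differences between -0.51 and 0.07.

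The exception on the forward strand was A_30_P01028029 at chr2:174092433-174092492, which was higher in old CMPs. It read -4.18, -4.72, -5.33 and -5.20 on young arrays 3 to 6 and -4.41, -3.51, -4.47 and -2.92 on old arrays 2 to 5. It was detected on 2 young and 3 old arrays, and the ages overlapped. Its log2 difference of 1.03 was 2.05 on the first slide, 0.01 on the second and 0.35 with normexp.

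The remaining forward probes were dim, but 2 of them lay above the detection floor on all 8 arrays. Probe A_30_P01023925 read -3.96, -3.55, -2.72 and -3.42 on the young arrays and -3.45, -3.22, -3.52 and -3.18 on the old arrays. Probe A_30_P01020854 read -3.79, -4.66, -3.52 and -3.93 on the young arrays and -4.88, -4.07, -4.06 and -4.16 on the old arrays. Both were detected on all 8 arrays, and in both the ages overlapped.

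Fewer arrays detected the next 3 forward probes, each on 3 young and 2 old arrays. Probe A_30_P01024740 read -4.11, -4.88, -4.37 and -4.21 on the young arrays and -5.02, -4.81, -4.08 and -5.18 on the old arrays. Probe A_30_P01025914 read -4.84, -5.18, -4.07 and -4.13 on the young arrays and -4.77, -4.03, -4.93 and -5.03 on the old arrays. Probe A_30_P01033172 read -3.97, -4.16, -5.01 and -4.48 on the young arrays and -5.49, -4.13, -3.97 and -5.33 on the old arrays. The ages overlapped at each of these 3 probes.

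A second lincRNA region, annotated on the reverse strand between positions 174092104 and 174106704 of the same interval, is no member and was looked at after the values had been seen. Its probes A_30_P01029727 and A_30_P01031780 were detected on all 8 arrays, with log2 differences of -0.21 and -0.35, and its probe A_30_P01028571 was detected on none. The reverse-strand probes detected at lower coordinates than the 4 neighbouring probes thus had smaller differences than these.

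**Figure D2:**
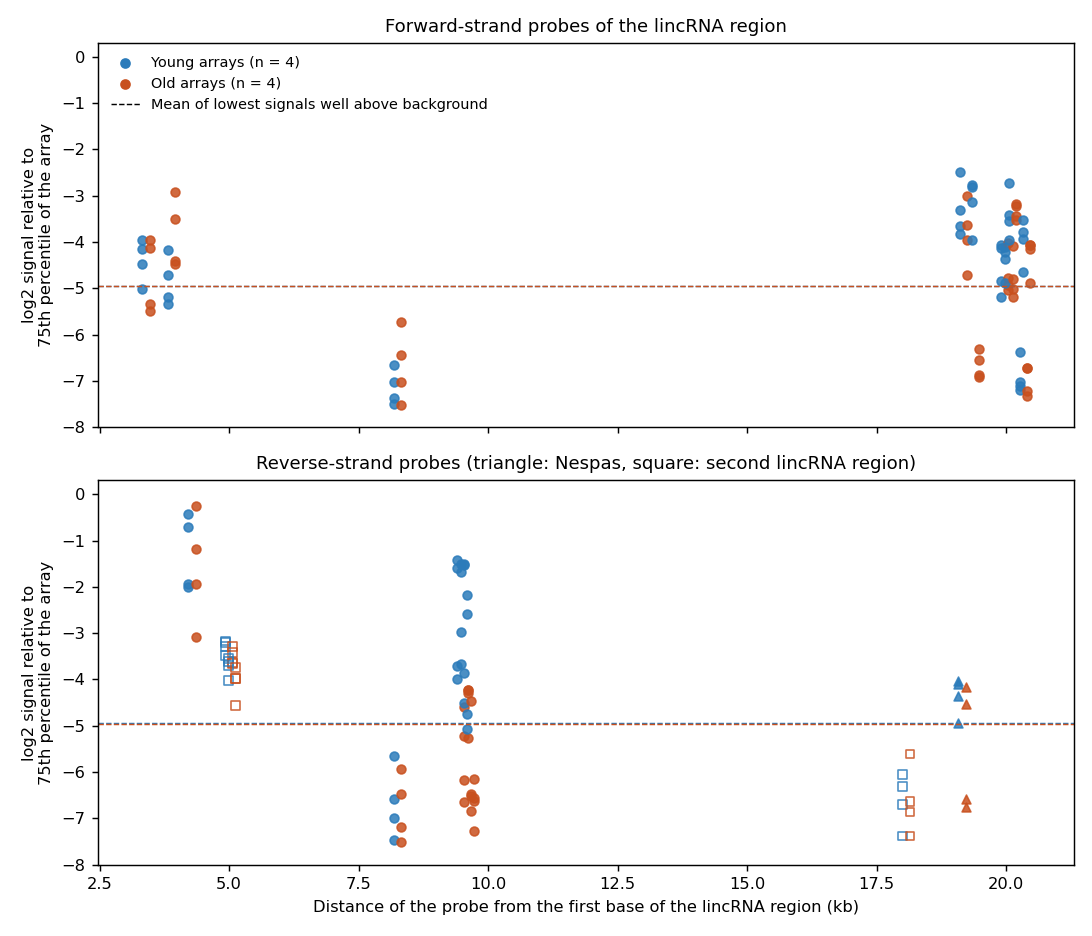
Log2 signal relative to the 75th percentile (vertical axes) of each probe of the chromosome 2 interval on each array, against its distance in kilobases from the first base of the interval (horizontal axis), with forward-strand probes above and reverse-strand probes below. Blue is young and orange old (n = 4 each), triangles are Nespas, open squares the second lincRNA region, and dashed lines the mean detection floor over the arrays of an age, nearly the same for both ages. The ages do not overlap at 3 of the 4 neighbouring reverse-strand probes and at 1 forward probe.

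Some places in the interval were read on both strands. The forward probe A_30_P01032222 and the Nespas probe shared 26 complementary bases, in capitals here.
A_30_P01032222 (forward, chr2:174107729-174107788): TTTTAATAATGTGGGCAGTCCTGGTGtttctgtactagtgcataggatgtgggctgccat
A_66_P113708 (Nespas, reverse, chr2:174107695-174107754): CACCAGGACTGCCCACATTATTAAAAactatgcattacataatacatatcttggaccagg

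Both strands gave signal there. The forward probe A_30_P01032222 read -3.65, -3.83, -2.49 and -3.32 on young arrays 3 to 6 and -3.96, -4.72, -3.63 and -3.02 on old arrays 2 to 5, and was detected on 4 young and 3 old arrays. Nespas read -4.04, -4.35, -4.95 and -4.10 on the young arrays and -4.54, -4.16, -6.76 and -6.57 on the old arrays, and was detected on 3 young and 2 old arrays. Old arrays 4 and 5 were dim for Nespas, while old arrays 2 and 3 lay within the young range. The log2 difference of Nespas was -1.15 (standard error 0.57) and did not pass the test, with an adjusted p of 0.879 from limma. It was -0.06 with normexp.

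At another place in the interval, a forward and a reverse probe shared 59 complementary bases (capitals), and neither was detected on any array. No signal was therefore read from either strand there, 1149 bases before the stretch of 4 reverse-strand probes.
A_30_P01024272 (forward, chr2:174096804-174096863): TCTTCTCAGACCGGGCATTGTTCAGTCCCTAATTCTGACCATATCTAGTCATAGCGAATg
A_30_P01018090 (reverse, chr2:174096803-174096862): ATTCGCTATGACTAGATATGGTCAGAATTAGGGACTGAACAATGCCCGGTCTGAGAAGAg

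Gnas itself was abundant in CMPs of both ages. Its 4 probes lay on the forward strand, beginning 12911 bases beyond the end of the lincRNA interval and spanning 49656 bases of chr2:174122337-174171992. The last of them, A_55_P2081313, read 5.96, 6.08, 6.11 and 6.10 on young arrays 3 to 6 and 6.67, 6.47, 5.99 and 6.28 on old arrays 2 to 5. The young arrays were close together, and old array 4 lay within their range. The log2 difference was 0.29 (standard error 0.19), with an adjusted p of 0.996 from limma.

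Probe A_55_P2081323, upstream of it, read -1.14, -0.69, -1.57 and -1.56 on the young arrays and -0.82, -0.52, -1.50 and -1.86 on the old arrays. The first Gnas probe, A_55_P2081318, read -4.58, -4.27, -3.69 and -4.12 on the young arrays and -3.81, -4.33, -4.90 and -4.16 on the old arrays. The ages overlapped at both, with log2 differences of 0.07 and -0.13 (standard errors 0.33 and 0.27, adjusted p 0.998 for each from limma). The fourth probe, A_52_P190394, was detected on no array. None of the 3 tested Gnas probes passed the test.

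Over all members, 59 of the 88 probes were tested, 67.0% against 60.1% of all probes on the array. At least 1 probe was tested for 32 of the 40 names. Among the 59 probes 1 crossed the thresholds of a call, beside 0.191% of all tested probes. It was the forward lincRNA probe, which had been chosen on this contrast, so that nothing is read from the count. It did not cross them with normexp, where 82 probes were called higher and 22 lower over the array. With the methods' t-test after adjustment and within either slide, 0 of all tested probes crossed them. Those settings therefore say nothing of this probe. The ages did not overlap at 4 of the 59 probes, beside 4.44% of all tested probes. Of these 4, 3 were lincRNA probes, which were lower in old CMPs (1.57% of all tested probes were lower without overlap), and 1 was a probe of Mkrn3, which was higher (2.86% of all). The lincRNA probes were chosen on this contrast, so that nothing is read from this count either. Among the tested probes of members chosen by name, the count was 1 of 47.

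Among the imprinted genes and neighbours chosen by name, which leaves out the lincRNA regions, 47 of 72 probes were tested for 30 of 38 names, and 0 were called by limma. An unadjusted p under 0.05 was seen at 7 of the 47 probes, beside 6.35% of all tested probes. They were the 2 probes of Mkrn3, the 2 of Dlk1 and those of Sgce, Cd81 and Ascl2. By the brightest tested probe of each gene, 15 genes were higher and 15 lower in old CMPs. The median log2 difference was 0.04, against -0.01 over the 23155 gene names with a tested probe. A change of at least 1.5-fold was seen upwards in 4 genes and downwards in 3. Over all gene names, 3.63% were at least 1.5-fold higher and 5.05% at least 1.5-fold lower.

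**Figure D3:**
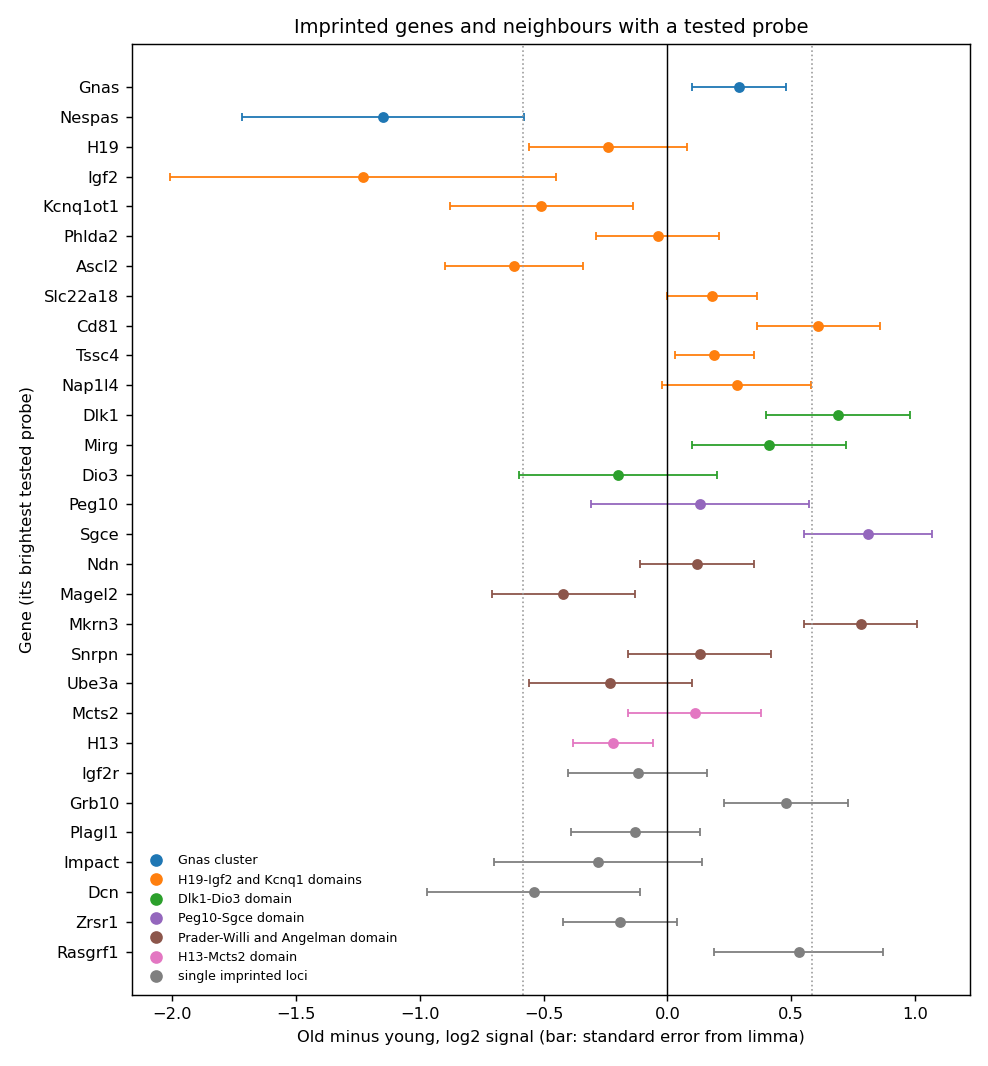
Old minus young log2 signal (horizontal axis) of the brightest tested probe of 30 imprinted genes and neighbours (vertical axis), with standard errors from limma and colours by domain. Dotted lines mark 1.5-fold in each direction, the differences run from -1.23 to 0.81, and Igf2 and Nespas have the widest error bars.

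In the domain of H19 and Igf2 and the neighbouring Kcnq1 domain on chromosome 7, each of the 9 names had a tested probe, with 4 higher, 5 lower and 0 called. Igf2, a fetal growth factor, had the largest difference of the tested genes chosen by name, but it was detected on 3 young and 2 old arrays only. Its probe at chr7:149839661-149839720 read -4.72, -5.25, -1.76 and -4.40 on young arrays 3 to 6 and -4.83, -4.95, -4.30 and -6.99 on old arrays 2 to 5. Young array 5 was far above the other young arrays and old array 5 below the other old arrays, and the remaining 6 arrays of both ages overlapped. The log2 difference of -1.23 (standard error 0.78, adjusted p 0.986 from limma) was -2.89 on the first slide, 0.42 on the second, -0.48 without young array 5 and -0.24 with normexp.

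H19, a noncoding RNA transcribed next to Igf2, had 7 probes, of which 4 were tested, 2 were detected on no array and 1 was detected on 1 young and 1 old array. The 4 tested probes had log2 differences of -0.47 to -0.08. At its brightest probe, A_30_P01025068, H19 read -3.30, -2.65, -1.66 and -2.72 on the young arrays and -3.14, -2.81, -2.79 and -2.54 on the old arrays. Here too young array 5 was the brightest, as it was for Igf2. Across the 8 arrays the Pearson correlation of H19 with Igf2 was 0.55 (exact permutation p = 0.168, adjusted 0.401) and Spearman's rho 0.02 (exact permutation p = 0.977, adjusted 0.977). Without the 2 arrays farthest from the median of H19 the correlation was -0.55, so that it rested on those arrays.

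Cd81, a tetraspanin of the cell surface, was bright in both ages and somewhat brighter in old CMPs. It read 4.89, 4.58, 5.14 and 5.45 on young arrays 3 to 6 and 5.66, 5.13, 5.71 and 5.98 on old arrays 2 to 5 (chr7:150253737-150253796). Old array 3 lay within the young range. The log2 difference was 0.61 (standard error 0.25), 1.52-fold, with an adjusted p of 0.704 from limma.

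Ascl2, a basic helix-loop-helix transcription factor, had the opposite sign. It read -1.98, -2.35, -1.23 and -2.23 on the young arrays and -2.31, -2.40, -2.56 and -3.00 on the old arrays (chr7:150152734-150152793). The ages overlapped at young array 4 and old array 2, and the log2 difference was -0.62 (standard error 0.28, adjusted p 0.779 from limma). It was -0.97 on the first slide, -0.27 on the second, -0.38 without young array 5 and -0.32 with normexp. The antisense RNA Kcnq1ot1 had 2 tested probes, with log2 differences of -0.51 and -0.52. Phlda2, Slc22a18, Tssc4 and Nap1l4 had differences of -0.04 to 0.28 at their brightest probes.

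In the Dlk1-Dio3 domain on chromosome 12, the coding gene Dlk1 was measured well, whereas most noncoding transcripts were dim. Dlk1, a transmembrane protein related to the Notch ligands, read -2.15, -2.50, -1.49 and -1.16 on young arrays 3 to 6 and -0.99, -1.09, -1.14 and -1.33 on old arrays 2 to 5 (chr12:110698721-110698781). Old array 5 was below young array 6, and the other old arrays were above each young array. The log2 difference was 0.69 (standard error 0.29), 1.61-fold, with an adjusted p of 0.714 from limma. It was 0.12 on the first slide and 1.26 on the second. The second Dlk1 probe, A_55_P2105371, was detected on 1 young and 4 old arrays and differed by 0.76 (adjusted p 0.783 from limma).

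The maternally expressed noncoding RNA Meg3 was not tested, since 2 of its 3 probes were detected on no array and the third on 1 young and 2 old arrays. Rtl1, a retrotransposon-derived gene, was detected on no array. Mirg, a noncoding RNA that hosts miRNAs, had 1 tested probe with a log2 difference of 0.41. Its other probe, A_55_P2336173, read -0.99 on young array 3 and between -7.39 and -6.31 on the other 7 arrays, and was detected on young array 3 only. Dio3, a deiodinase of thyroid hormones, was detected on 3 young and 2 old arrays, with a log2 difference of -0.20.

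In the Peg10-Sgce domain on chromosome 6, Sgce had the highest difference among the tested genes chosen by name, without passing the test. Sgce encodes epsilon-sarcoglycan, a membrane protein. It read -0.72, -1.09, -0.46 and 0.04 on young arrays 3 to 6, and 0.53, 0.08 and 0.41 on old arrays 2, 3 and 5, with old array 4 just under 0 (chr6:4639584-4639643). Old array 4 was below young array 6, and the other old arrays were above each young array. The log2 difference was 0.81 (standard error 0.26), 1.76-fold, with an adjusted p of 0.432 from limma, and 0.45 and 1.17 on the first and second slide. Peg10, a retrotransposon-derived gene that shares a promoter region with Sgce, differed by 0.13 at its tested probe.

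In the Prader-Willi and Angelman domain on chromosome 7, Mkrn3 was the member chosen by name whose ages did not overlap. Mkrn3 encodes a makorin family RING finger protein. Its probe A_51_P342031 read -3.63, -3.67, -4.21 and -4.42 on young arrays 3 to 6 and -2.98, -3.39, -3.36 and -3.10 on old arrays 2 to 5 (chr7:69562733-69562792). Each old array was above each young array, 3 young and 4 old arrays were detected, and the gap between the nearest arrays was narrow. The log2 difference was 0.78 (standard error 0.23), 1.71-fold, with an adjusted p of 0.366 from limma, and 0.36 with normexp. A second probe, A_55_P2171563, gave the same difference of 0.78 with overlapping ages.

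The neighbours of Mkrn3 differed less. Ndn and Magel2, both MAGE family genes, differed by 0.12 and -0.42, and Snrpn, which encodes a splicing protein, by 0.13 at the 1 detected of its 3 probes. Ube3a, a ubiquitin ligase, differed by -0.23 and -0.43 at its 2 probes. Snrpn and Ube3a varied in opposite directions over the 8 arrays, with a Pearson correlation of -0.86 (exact permutation p = 0.00685, adjusted 0.0787) and a Spearman's rho of -0.81 (exact permutation p = 0.0218, adjusted 0.142). After subtraction of the mean of each age the correlation was -0.86 (exact permutation p = 0.0174, adjusted 0.113), and without the 2 arrays farthest from the median of Snrpn it was -0.88. The permutations did not keep slides apart, and the Snrpn probe was dim, at -4.49 to -3.32 over the 8 arrays.

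**Figure D4:**
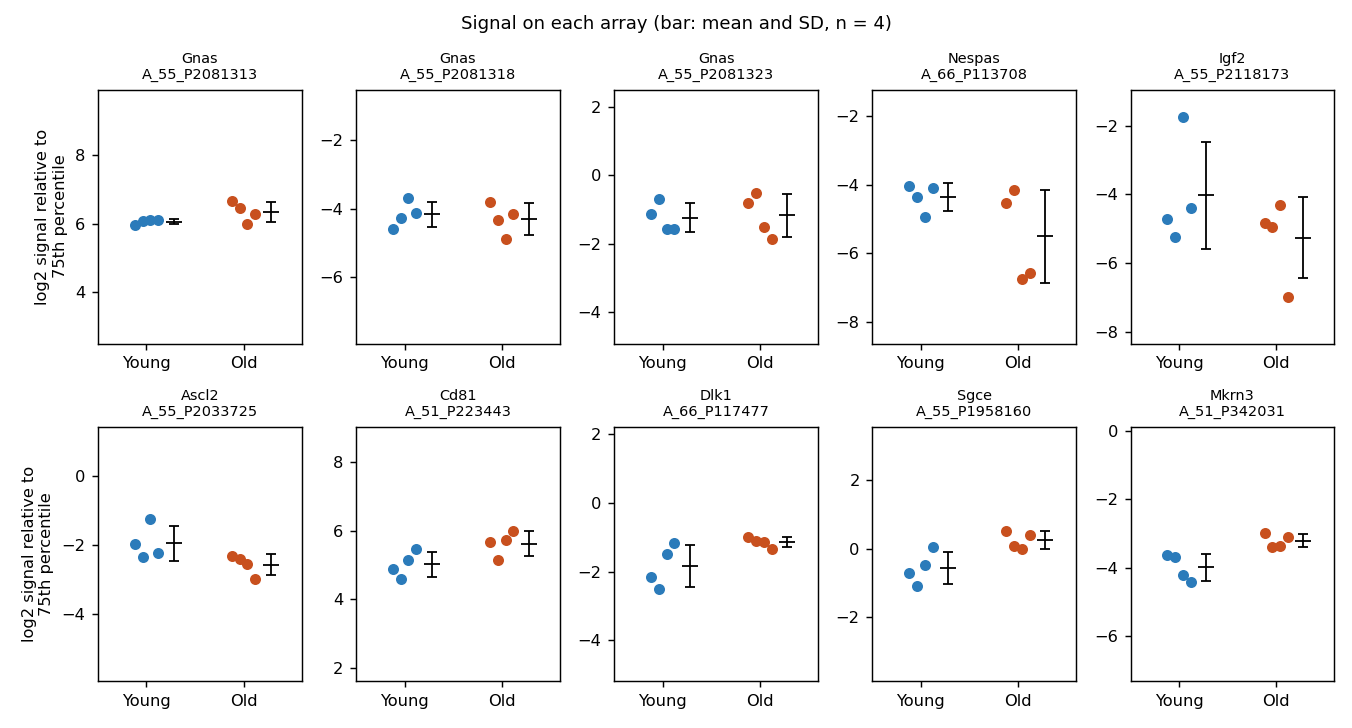
Log2 signal relative to the 75th percentile (vertical axes, each panel spanning the same range) of the detected probes of Gnas, of Nespas and of the members at least 1.5-fold apart, on young (blue) and old (orange) arrays, with points in replicate order and black bars for mean and SD (n = 4). Mkrn3 is the gene shown whose ages do not overlap, and young array 5 and old array 5 stand apart for Igf2.

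Of 19 neighbouring pairs listed, 13 had a tested probe for both genes, and 0 had an adjusted p under 0.05 for the Pearson correlation over the 8 arrays. Gnas and the reverse-strand lincRNA region, by its brightest probe A_30_P01032628, had a Pearson correlation of -0.81 (exact permutation p = 0.0121, adjusted 0.0787) and a Spearman's rho of -0.86 (exact permutation p = 0.0107, adjusted 0.139). Within ages, which does not use the difference between them, the Pearson correlation was -0.90 (exact permutation p = 0.00174, adjusted 0.0226). This lincRNA probe is not among the 4 neighbouring reverse-strand probes, and its log2 difference between the ages was -0.35. Its young arrays read -2.01 and -1.93 on the first slide and -0.42 and -0.71 on the second, and the permutations did not keep slides apart. Without the 2 arrays farthest from the median of Gnas the correlation was -0.53, so that it rested in part on those arrays. Each slide held 4 arrays, too few for a correlation within it.

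Of the members outside these domains, the 3 names of the Peg3 domain, Peg3, Zim1 and Usp29, had 5 probes and were detected on no array. Zdbf2, a zinc finger gene, was also detected on no array. Mest, a hydrolase family gene, was not tested. Of its 3 probes, A_55_P2151868 was detected on 3 young and 0 old arrays, with signal at least 1.02-fold lower in old CMPs, and the other 2 were detected on no array. Nnat, which encodes a small membrane proteolipid, was not tested either, with 1 probe detected on 1 young and 2 old arrays and 1 probe on 1 old array.

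None of the single imprinted loci with a tested probe passed the test. Grb10, an adaptor of insulin receptor signalling, differed by 0.48 (adjusted p 0.921 from limma), Rasgrf1, a Ras guanine nucleotide exchange factor, by 0.53 (adjusted p 0.992) and Dcn, an extracellular matrix proteoglycan, by -0.54 (adjusted p 0.998). Igf2r, the receptor that clears Igf2, differed by -0.12, Plagl1, a zinc finger transcription factor, by -0.13, Impact by -0.28 and Zrsr1 by -0.19. Mcts2 and its host gene H13, a signal peptide peptidase, differed by 0.11 and -0.22, and the 4 probes of H13 ranged from -0.22 to 0.26.

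Further lists gave the surroundings of the members, with each gene read by its brightest tested probe. Of 39 other imprinted genes, 28 were tested, 16 higher and 12 lower, with a median log2 difference of 0.09 and 0 called by limma, beside 0.207% of all gene names. An unadjusted p under 0.05 was seen in 6 of them, beside 6.62% of all gene names. The ages did not overlap at 6 of the 28, all higher in old CMPs. Over all tested probes, 4.44% did not overlap, and 2.86% were higher without overlap. The list was not tested as a set. The highest difference was that of Ddc, an aromatic amino acid decarboxylase, at 0.92 (adjusted p 0.425 from limma), and the lowest that of Inpp5f at -0.43 (adjusted p 0.998).

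Of 11 genes that flank Gnas, 8 were tested, 0 were called by limma and 1 had an unadjusted p under 0.05. As for the list above, 0.207% of all gene names were called and 6.62% had an unadjusted p under 0.05, also beside the next 2 lists. The median was -0.04, with 4 genes higher and 4 lower, from -0.53 for Ctsz, a lysosomal protease, to 0.16 for Npepl1. The ages did not overlap at 1 of the 8, Ctsz, which was lower in old CMPs (adjusted p 0.566 from limma). The share of 4.44% of all tested probes without overlap also stands beside this list and the next 2. Of 18 regulators of imprints, 17 were tested, with a median of -0.09, 0 called by limma and 2 with an unadjusted p under 0.05. The DNA methyltransferase Dnmt3a had the highest difference of them, 0.19 (adjusted p 0.998 from limma), and its cofactor Dnmt3l the lowest, at -0.80 (adjusted p 0.225). The ages did not overlap at 2 of these 17 genes, among them Dnmt3l, which was lower in old CMPs. Of 28 genes of Gs alpha and cyclic AMP signalling, 27 were tested, with a median of 0.08, 0 called by limma and 4 with an unadjusted p under 0.05. They ranged from -0.76 for the prostacyclin receptor Ptgir to 0.55 for the adenylate cyclase Adcy6. The ages did not overlap at 3 of the 27 genes, in either direction.

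The arrays carried the markers of the sorted cells, and markers of neighbouring cell types differed between the ages. The counts of all marker lists stand beside 0.207% of all gene names called by limma and 6.62% with an unadjusted p under 0.05. Without overlap of the ages were 4.44% of all tested probes. All 7 CMP markers, among them Kit, Cd34 and Mpo, were tested, with 2 higher and 5 lower in old CMPs and a median log2 difference of -0.21. Of them, 0 were called by limma, 3 had an unadjusted p under 0.05 and 1, Mpo, was lower without overlap of the ages. The log2 of their summed signal was 9.22 to 9.66 in young and 8.97 to 9.09 in old CMPs. Most of that sum came from Mpo (young mean 9.18, with Cd34 next at 6.75). All 15 megakaryocyte markers were higher in old CMPs, with Gp9 called, 15 at an unadjusted p under 0.05 and 12 without overlap of the ages, and their log2 summed signal was 6.66 to 7.65 in young and 8.18 to 8.59 in old CMPs. Of 11 tested HSC markers 7 were higher, with Hoxb5 called, 5 at an unadjusted p under 0.05 and 5 without overlap in either direction. Their log2 summed signal was 4.09 to 4.49 in young and 4.69 to 5.02 in old CMPs. All 9 tested granulocyte and monocyte markers were lower, with 0 called by limma, 5 at an unadjusted p under 0.05 and 4 without overlap. Their log2 summed signal was 8.81 to 9.25 in young and 7.92 to 8.76 in old CMPs.

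The other marker lists had 0 called genes by limma. Over 7 tested erythroid markers the median was -0.14 and 0 had an unadjusted p under 0.05. Over 5 tested lymphoid markers the median was -0.22, again with 0, and Rag1 was detected on no array. Over 4 tested stromal markers the median was -0.07, with 1 at an unadjusted p under 0.05, and Pdgfra and Lum were detected on no array. Over 4 tested endothelial markers the median was 0.19, with 1. In a sorted bulk population, fewer cells of a type and less RNA per cell cannot be told apart. The part of the shift in markers in the values of the lincRNA regions and imprinted genes was not tested.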

How the data were processed

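RNA of CMPs was measured on 8 arrays, 4 young and 4 old, grouped by the sample labels. Per the labels, total RNA was labelled with Cy3 and hybridized to Agilent 8x60K arrays. According to the submitters' processing notes, Feature Extraction 10.7.3.1 was used. The deposited scanner files hold linear spot intensities from which this software had already removed background. A deposited series table holds log2 values from the authors (baseline-centred after a percentile shift), and it served only as an alternative. Gene names and mm9 coordinates are those of the array design. Exons and introns were not analysed here.

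From the intensities, log2(signal) minus the 75th percentile of the array over 59305 non-control spots was computed, without spots flagged as outliers (141 to 230 per array). None was saturated. Spots of a probe were averaged, and probes well above background on at least 4 arrays were tested with limma 3.58.1 (lmFit and eBayes) in R 4.3.3. Other computations used Python 3.11.15. A gene of several probes was represented by its tested probe with the highest mean. Exact permutation tests were two-sided. Precision is limited by the number of arrays and, for dim probes, by background. Nothing in the labels says that the samples of an age are separate mice, and the methods state fewer mice per age than there are arrays, without naming arrays, so that p-values measure the spread between these samples. Each slide held 2 young and 2 old arrays.

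Per-array values are given for all detected probes of the lincRNA regions, Gnas and Nespas and for members whose brightest tested probe differed by at least 1.5-fold or did not overlap. Other genes were named as the extremes of a list or where called, and H19, Mirg and the second lincRNA region were added after their values had been seen. The members, the gene lists and these rules were chosen with earlier results of these data known. Results were recomputed from the series table, with normexp (offset 50), with quantile normalization or centring on the median, under 3 other filters on dim probes, with array weights, with robust variances and an intensity trend, with the methods' t-test, with limma p-values left unadjusted, with slide or replicate number as a block, in each slide alone, and without each array.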

Additional observations from a re-analysis of the deposited data

Results flagged for a closer look

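In 120 groups of 4 arrays, for 60 probes of the members and both ages, 8 groups held 1 array whose gap to its nearest neighbour took up most of the range of the group. Chance alone flags about 1 in 20 such groups. Probe A_30_P01020854 of the forward lincRNA region read -4.88 on old array 2 and -4.16 to -4.06 on the other old arrays. Probe A_30_P01021197 of the reverse lincRNA region read -5.27 on old array 5, where it was not well above background, and -4.30 to -4.22 on the other old arrays. Probe A_30_P01030153 of the same region read -4.47 on old array 4 and -6.83 to -6.48 on the other old arrays. H19 (A_30_P01026972) read -2.99 on young array 5 and -4.66 to -4.45 on the other young arrays. Peg10 (A_55_P2029763) read -6.08 on young array 5, where it was not well above background, and -4.26 to -4.04 on the others. Plagl1 (A_55_P1961968) read -1.07 on young array 3 and -2.59 to -2.38 on the others. Zrsr1 (A_51_P407675) read -0.33 on old array 2 and -0.79 to -0.72 on the other old arrays. Rasgrf1 (A_52_P536022) read -4.84 on young array 3 and -3.66 to -3.51 on the other young arrays.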

How the results depend on the processing

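The 1 member probe past the thresholds of a call was the forward lincRNA probe, chosen on the same contrast, so that the count does not speak for its stability. The count was 0 with normexp, 0 where probes had to be well above background on all 8 arrays (this probe is then not tested), 0 with the methods' t-test after adjustment and 0 within slide 1 and within slide 2. Over the whole array, the adjusted t-test and each slide alone also gave 0 calls, so that their counts say nothing of this probe. Without adjustment, member probes at least 1.5-fold apart with a p under 0.05 numbered 7 with the methods' t-test and 12 with limma. The limma setting without adjustment was added after the data had been seen. Of all 33476 tested probes, 646 higher and 406 lower passed the same thresholds with the t-test, and 863 and 731 with limma. Both member counts hold lincRNA probes, which were chosen on this contrast. The 4 gene lists other than the marker lists went from 0 called genes to 7 with the methods' t-test and 7 with limma, both without adjustment. These lists had 28, 8, 17 and 27 tested genes, and the totals just given for all tested probes stand beside them too. The pairs of neighbours with an adjusted p under 0.05 went from 0 to 2 after a shift to the median (Snrpn with Ube3a, Tssc4 with Nap1l4), and from 0 to 1 over the fits without 1 array (Snrpn with Ube3a without young array 6, Gnas with the reverse lincRNA probe A_30_P01032628 without old array 5). Probes detected on at least 4 arrays numbered 59, and 73 by the software's milder mark for a positive and significant signal. The Gnas probe A_55_P2081318 changed from -0.13 to 0.08 with normexp and 0.07 within slide 2, and ranged from -0.30 to 0.07 over the fits without 1 array. The series table has 1 line for all Gnas probes, with a difference of 0.32, which is no value of this probe. The Gnas probe A_55_P2081323 changed from 0.07 to -0.16 with the replicate number as a block and to -0.25 within slide 2, and ranged from -0.15 to 0.29. Igf2 was 0.42 within slide 2. The causes were not tested. The correlation between deviations of same-numbered arrays was -0.093, -0.141 and 0.148 for numbers 3, 4 and 5. Arrays with different numbers gave -0.264 to 0.372. The numbers thus gave no sign of pairing, but 3 shared numbers are too few to exclude it. With the replicate number as a block, 1 member was called, while the whole array went from 53 higher and 11 lower calls to 10 and 1. The median log2 difference of all tested probes was -0.02, and 0.10 after a shift to the median. Array number limits precision, and for probes near background a fall has only a bound.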
